A study of Mus musculus with 9 samples.

Results

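Spata stands for spermatogenesis-associated, a name given to genes because their transcripts were found in the testis. The members were all probes whose gene symbol in the platform annotation begins with Spata followed by a digit. There were 48 such probes for 28 genes, among 45279 probes and 19057 annotated genes in all. RNA came from mouse spermatids, the haploid cells that become sperm after meiosis, of 3 genotypes with 3 Illumina Mouse WG-6 v2.0 bead arrays each. The genotypes were labelled Wip1+/+ (called wild type below), Wip1-/-, which lacks both alleles of the gene Ppm1d for the phosphatase WIP1, and Wip1-/- Atm+/-, which in addition carries a single working allele of the DNA damage kinase gene Atm. The series title poses the question of whether WIP1 acts on heterochromatin silencing through ATM, BRCA1 and DNA methylation. The labels give no age or strain and do not say whether arrays hybridized in triplicate hold RNA of different animals, so p-values measure only the spread between arrays.

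A spermatid builds an acrosome, the enzyme sac at the tip of the sperm head, grows a flagellum with a midpiece wrapped in mitochondria, and replaces its histones by protamines. The Spata genes share a naming rule and little sequence: some encode parts of the acrosome, the head-to-tail junction or the midpiece, 1 set (Spata31) is a multi-copy family, and others are used in meiosis before the spermatid stage or in tissues outside the testis. They are therefore described by role rather than as a pathway.

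On each array 33 to 35 of the 44 Spata probes with scanner values were detected, meaning a detection p-value under 0.05, and 37.9% to 42.0% of all 43582 probes were. Spermatid markers Prm1, Tnp1, Tnp2 and Acrv1 were detected on all 9 arrays. Ppm1d itself was 0.66 ± 0.13 (SE) lower on the log2 scale in Wip1-/- than in wild type (limma, adjusted p = 0.00511), whereas on the arrays labelled Wip1-/- Atm+/- it was 0.10 ± 0.13 above wild type (adjusted p = 0.598), which goes against the label as far as this probe can show, since its position relative to the deleted part is not known here. Atm was 0.71 ± 0.11 lower on those arrays than in wild type (adjusted p = 0.000429), and 0.81 ± 0.11 higher in Wip1-/- (adjusted p = 0.000692). These arrays are called by their label throughout, and each difference that uses them is a difference from the arrays so labelled.

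Of the 28 genes, 22 had a probe detected on at least 3 of the 9 arrays and were tested among 10556 genes, each by its brightest detected probe, and 21 of them were detected on all 9 arrays. Spata1 and Spata5, which encodes an AAA ATPase, were detected on 0 arrays. Spata9 was detected on 1 Wip1-/- array and Spata31d1b on 2 wild-type arrays. Spata22 and Spata32 had blank scanner cells and are described from the authors' processed table. The Spata2 probe passed with 3 arrays, 1 of wild type and 2 of Wip1-/-.

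In Wip1-/- against wild type, 5 of the 22 tested Spata genes changed (limma, adjusted p under 0.05), or 22.7%, where 19.8% of all genes tested changed. Of these 1 was higher and 4 were lower, beside 11.5% of all genes higher and 8.36% lower. Against the same wild type 3 changed on the arrays labelled Wip1-/- Atm+/-, 1 higher and 2 lower, or 13.6% beside 29.4% of all genes (15.5% higher and 13.9% lower). Between those arrays and Wip1-/- 7 changed, 4 higher and 3 lower, or 31.8% beside 34.7% of all genes (16.7% higher and 18.0% lower). The share called in Wip1-/- and between both mutant groups lay near that of all genes. In none of the 3 comparisons were 12 tested Spata genes called, and the share of all genes called in none was not counted. Some of the 12 were called in alternative fits, most often Spata20, in 7 of 18 between both mutant groups. The 3 comparisons share arrays and are not independent of each other.

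The median Spata difference was -0.09 in Wip1-/- against wild type, where that of all genes was 0.04. On the arrays labelled Wip1-/- Atm+/- it was 0.04 relative to wild type and 0.12 relative to Wip1-/-, beside -0.03 and -0.02 for all genes. When arrays were scaled to a common median instead, the Spata medians were -0.17, -0.14 and -0.05, beside 0.11, -0.15 and -0.21 for all genes, so the sign of the second and the third Spata median depended on the scaling. Without overlap between the arrays of the groups were 10, 8 and 13 Spata genes in the 3 comparisons, where 38.0%, 41.3% and 49.3% of all genes did not overlap. Changes of over 2-fold were found for 0, 1 and 1 Spata genes, where 1.86%, 7.64% and 7.43% of all genes were called with such a change. Because these are bulk samples, fewer cells of a type and less RNA per cell cannot be told apart.

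**Figure D1:**
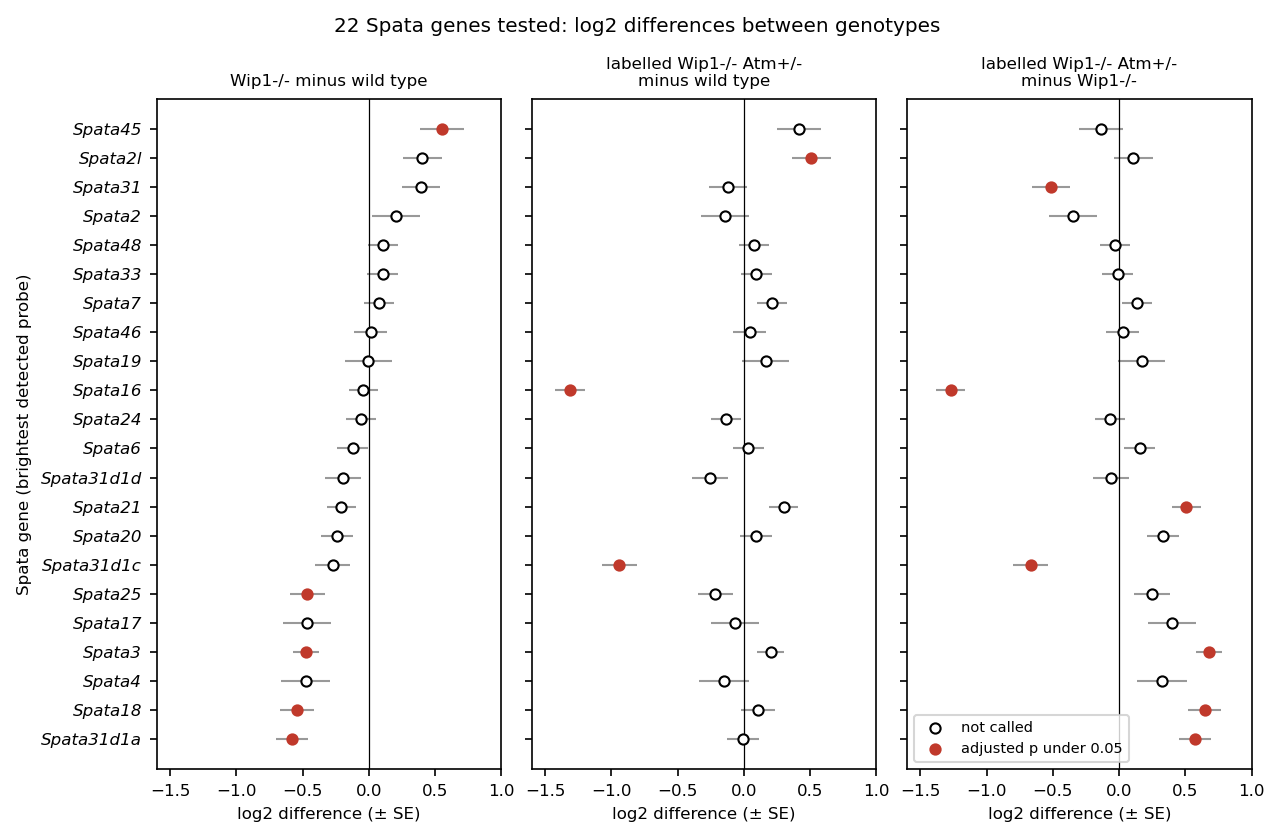
Log2 difference (x axis, points with ± SE bars) of each of the 22 tested Spata genes (y axis) in the 3 comparisons, with genes called at an adjusted p under 0.05 in red and the others open. Spata3, Spata18 and Spata31d1a lie left of 0 in the first panel and right of 0 in the third, while Spata16 and Spata31d1c lie left of 0 in both panels of the labelled arrays.

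Spata3, Spata18 and Spata31d1a were called lower in Wip1-/- than in wild type and higher on the arrays labelled Wip1-/- Atm+/- than in Wip1-/-. On those labelled arrays they were at or near the wild-type level. Spata3 read log2 levels of 13.84, 13.75 and 13.81 in wild type, 13.30, 13.30 and 13.39 in Wip1-/-, and 14.04, 14.04 and 13.93 on the arrays labelled Wip1-/- Atm+/-. All 3 Wip1-/- arrays lay below every other array, and the labelled arrays lay above wild type without overlap. Spata3 was 1.39-fold lower in Wip1-/- than in wild type (log2 difference -0.47 ± 0.10 SE, adjusted p = 0.00781) and 1.60-fold higher on the labelled arrays than in Wip1-/- (0.68 ± 0.10, adjusted p = 0.000359). Its difference between labelled arrays and wild type was 0.20 ± 0.10 and did not pass (adjusted p = 0.158).

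Spata3 carried 4 detected probes, annotated to several transcripts of the gene, and all were lowest in Wip1-/-. In Wip1-/- against wild type the 4 probes differed by -0.47, -0.85, -1.11 and -0.56, and all 4 were called in the fit over 18867 probes, where 17.6% of all probes were called. On the labelled arrays against Wip1-/- they differed by 0.68, 0.61, 1.55 and 1.13, again all called beside 33.6% of all probes. The -1.11 and 1.55 were those of the dim probe ILMN_2695308, which read 6.04, 6.20 and 6.76 in Wip1-/-. Their sizes are uncertain, since the authors' table gave -0.72 and 1.04, both still called. The 4 probes parted in the remaining comparison. Probe ILMN_2706809 was 1.48-fold higher on the labelled arrays than in wild type (0.57 ± 0.11, adjusted p = 0.00236), beside 28.1% of all probes called. The brightest, ILMN_1221195 and ILMN_2695308 gave 0.20, -0.24 and 0.44 with no call.

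Spata18 (also known as Mieap) encodes a p53-inducible protein of mitochondrial quality control. It read 13.51, 13.51 and 13.59 in wild type, 12.89, 13.18 and 12.92 in Wip1-/-, and 13.51, 13.59 and 13.83 on the labelled arrays. The 3 Wip1-/- arrays were again the lowest, and the other groups overlapped each other. The fall in Wip1-/- was 1.45-fold (-0.54 ± 0.13, adjusted p = 0.0128), and on the labelled arrays the gene was 1.56-fold above Wip1-/- (0.65 ± 0.13, adjusted p = 0.00226). Its second probe gave -0.57 (adjusted p = 0.0191) and 0.46 (adjusted p = 0.0272) in the same comparisons, calls kept in 8 and 7 of 11 alternative fits. At the tested probe the first call was lost when the first or the third Wip1-/- array was left out (adjusted p = 0.0567 and 0.0525).

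Spata31d1a belongs to the Spata31 family, whose members measured here lie on chromosome 13. Its levels were 11.19, 11.42 and 11.37 in wild type, 10.74, 10.59 and 10.91 in Wip1-/-, and 11.31, 11.22 and 11.44 on the labelled arrays. Here too Wip1-/- stood below the other groups on every array. It was lower in Wip1-/- than in wild type (-0.58 ± 0.12, adjusted p = 0.00812) and 1.49-fold higher on the labelled arrays than in Wip1-/- (0.57 ± 0.12, adjusted p = 0.00407), while wild type and the labelled arrays differed by -0.01 (95% confidence interval -0.28 to 0.26). Both calls of Spata31d1a and of Spata3 held in all 18 alternative fits.

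Spata32 shared this pattern in the authors' processed table, the sole source of its values. Their log2 read 12.14, 12.06 and 12.07 in wild type, 11.33, 11.56 and 11.56 in Wip1-/-, and 12.25, 12.12 and 12.17 on the labelled arrays. The Wip1-/- arrays were the 3 lowest, and wild type overlapped the labelled arrays. The difference was -0.61 ± 0.09 in Wip1-/- (limma on that table, adjusted p = 0.000233) and 0.70 ± 0.09 on the labelled arrays against Wip1-/- (adjusted p = 1.72e-05). In that table, which keeps probes below background, 7.99%, 13.1% and 15.1% of all probes were called in the 3 comparisons.

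**Figure D2:**
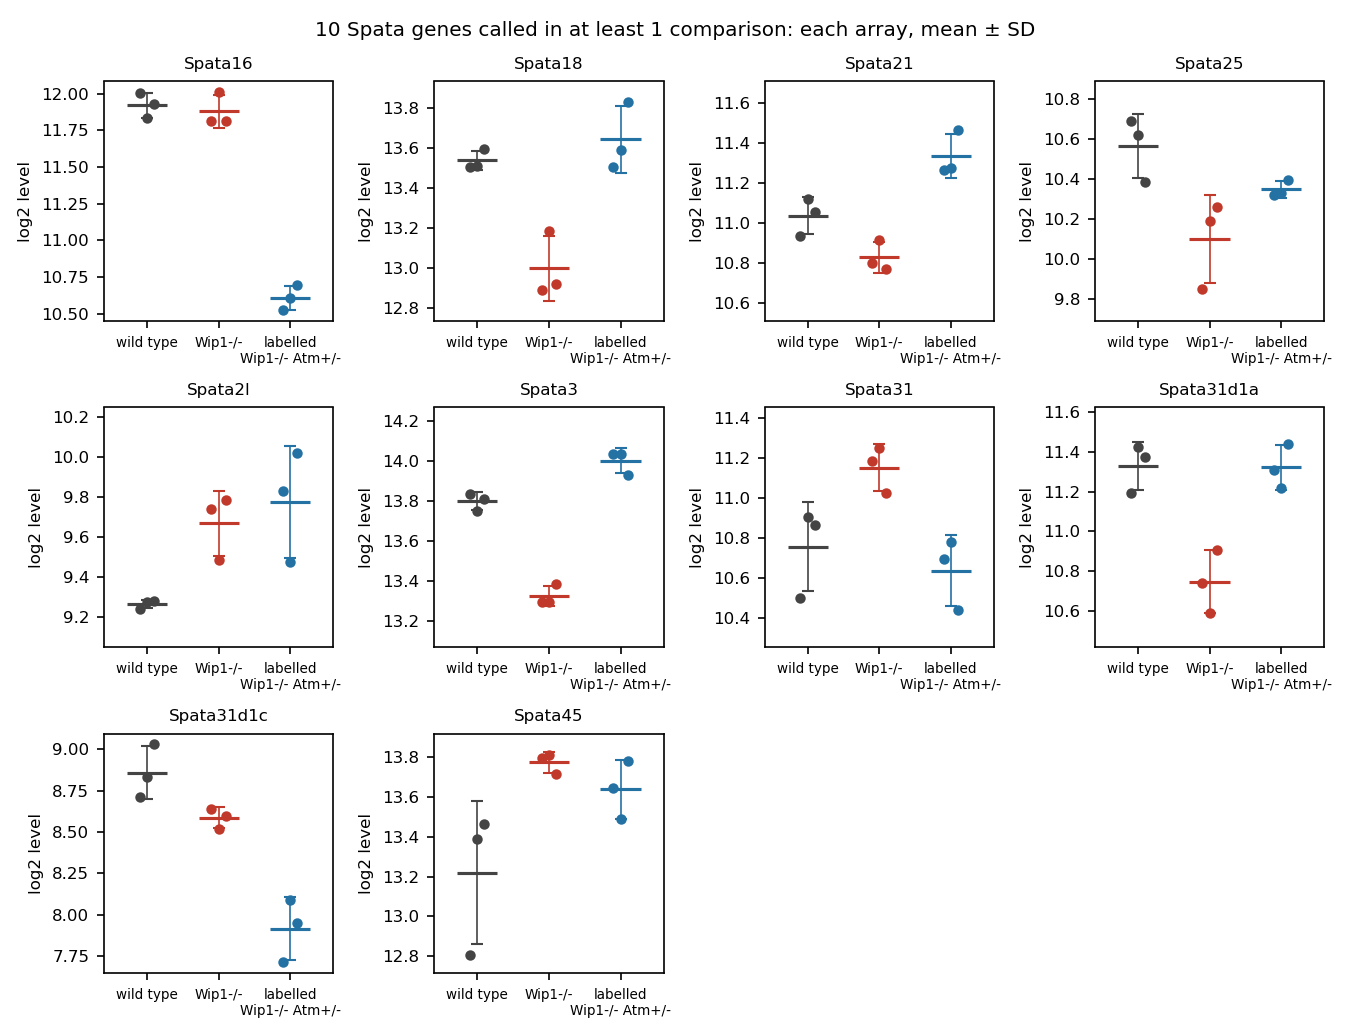
Log2 level after normalization (y axis, a separate range for each gene) of the 10 Spata genes called in at least 1 comparison, with each point 1 array, the bar the mean and the whiskers ± SD of 3 arrays. Spata3, Spata18 and Spata31d1a are lowest in Wip1-/-, and Spata16 and Spata31d1c are lowest on the arrays labelled Wip1-/- Atm+/-.

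The start regions of Spata3, Spata18, Spata32 and Spata31d1a are shown because these genes carried both calls. That of Spata31d1b is shown because its window resembles that of its neighbour Spata31d1a. Both calls use the same Wip1-/- arrays, and the share of all genes carrying both was not counted. Spata20, Spata21 and Spata25 also had every Wip1-/- array below both other groups, but did not carry both calls and are not shown. Windows run from 250 bases before to 50 after a start, are taken from RefSeq on build GRCm38.p6 and are written 5′ to 3′ on the strand of the gene. The start was the outermost base of the gene's record for 14 of 32 Spata windows, and lay inside the record for Spata3 and Spata31d1a. Capitals mark the letters TGACGT or their reverse complement, the core of the cAMP response element bound by CREM, a regulator of spermatid genes, and the E-box CACGTG, which do not overlap in these windows.
Spata3, chr1:86021695-86021994, plus strand: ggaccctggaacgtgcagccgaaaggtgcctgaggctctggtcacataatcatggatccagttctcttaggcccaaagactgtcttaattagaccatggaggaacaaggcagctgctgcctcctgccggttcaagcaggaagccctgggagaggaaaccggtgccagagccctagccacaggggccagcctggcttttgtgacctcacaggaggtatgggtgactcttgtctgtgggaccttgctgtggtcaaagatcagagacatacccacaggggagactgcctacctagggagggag
Spata18, chr5:73651130-73651429, plus strand: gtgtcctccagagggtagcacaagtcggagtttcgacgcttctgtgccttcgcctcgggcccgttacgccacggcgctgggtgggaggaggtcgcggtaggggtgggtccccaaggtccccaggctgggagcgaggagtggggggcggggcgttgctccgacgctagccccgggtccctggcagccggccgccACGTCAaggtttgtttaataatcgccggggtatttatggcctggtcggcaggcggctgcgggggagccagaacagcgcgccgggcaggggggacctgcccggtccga
Spata32, chr11:103218383-103218682, minus strand: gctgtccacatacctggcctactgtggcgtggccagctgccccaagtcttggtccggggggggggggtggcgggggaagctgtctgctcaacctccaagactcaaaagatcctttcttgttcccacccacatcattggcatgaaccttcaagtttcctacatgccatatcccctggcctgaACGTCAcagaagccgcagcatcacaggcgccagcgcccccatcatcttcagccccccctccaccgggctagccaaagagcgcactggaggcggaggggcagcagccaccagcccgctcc
Spata31d1a, chr13:59706148-59706447, minus strand: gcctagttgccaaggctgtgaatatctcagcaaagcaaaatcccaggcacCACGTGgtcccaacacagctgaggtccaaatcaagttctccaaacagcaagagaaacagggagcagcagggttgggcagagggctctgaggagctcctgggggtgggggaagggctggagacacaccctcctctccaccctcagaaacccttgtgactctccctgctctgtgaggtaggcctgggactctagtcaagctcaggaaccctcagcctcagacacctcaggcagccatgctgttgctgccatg
Spata31d1b, chr13:59712034-59712333, plus strand: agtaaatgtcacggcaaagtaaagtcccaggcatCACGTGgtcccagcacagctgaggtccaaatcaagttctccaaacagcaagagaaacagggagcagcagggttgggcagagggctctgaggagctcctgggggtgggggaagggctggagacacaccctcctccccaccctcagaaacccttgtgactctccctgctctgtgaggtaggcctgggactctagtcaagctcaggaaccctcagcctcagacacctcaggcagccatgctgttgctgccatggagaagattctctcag

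Of the 28 genes, 26 had at least 1 window, 32 windows in all. TGACGT on either strand stood in 6 of the 32 windows (18.8%) and in 7.51% of all 32851 windows, with no test made. Besides Spata18 and Spata32 these were windows of Spata5, which was not tested, and of Spata6, Spata7 and Spata48, which passed no comparison at their tested probes. The windows of Spata3 and Spata31d1a lacked these letters. The full palindrome TGACGTCA was found in 1 Spata window, that of Spata7 (3.12%, 1.79% of all windows). CACGTG was in 3 windows (9.38%, 7.15% of all), those of Spata16, Spata31d1a and Spata31d1b. GTTGCC, a part of the X-box bound by RFX factors, was in 12.5% of Spata windows and 12.5% of all windows. Such matches describe the letters and not binding.

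Between the windows of Spata31d1a and Spata31d1b 87.3% of aligned positions were identical, while other pairs of Spata31 windows shared at most 64.0%. Spata31d1a was detected on all 9 arrays and Spata31d1b on 2 wild-type arrays alone, at log2 levels of 4.83 to 5.82 over all arrays. The probe sequences were not used here, so the signal of similar copies could not be assigned with certainty to 1 of them. In the gene order of chromosome 13 Spata31d1a, Spata31d1b and Spata31d1d are adjacent, and so are Spata31 and Spata31d1c.

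The 4 tested Spata31 genes did not all share an order of the genotypes, though the means of Spata31d1c and Spata31d1d fell in the same order. Spata31d1c read 8.71, 8.83 and 9.03 in wild type, 8.64, 8.52 and 8.60 in Wip1-/-, and 7.71, 8.09 and 7.95 on the labelled arrays. The 3 labelled arrays were the lowest, and none of the groups overlapped. It was 1.92-fold lower on the labelled arrays than in wild type (-0.94 ± 0.13, adjusted p = 0.000243) and 1.59-fold lower than in Wip1-/- (-0.67 ± 0.13, adjusted p = 0.00221), both calls being kept in all 18 alternative fits. Its neighbour Spata31 read 10.50, 10.91 and 10.86 in wild type, 11.18, 11.25 and 11.02 in Wip1-/-, and 10.69, 10.78 and 10.44 on the labelled arrays. Wip1-/- was the highest group on all 3 arrays, and the difference that passed was the 1.43-fold lower level on the labelled arrays (-0.51 ± 0.14, adjusted p = 0.0162), a call lost without the first or second Wip1-/- array or the third labelled array (adjusted p = 0.0516, 0.0586 and 0.0700). Its 0.39 ± 0.14 in Wip1-/- against wild type did not pass (adjusted p = 0.0753), nor did any comparison of Spata31d1d.

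Among genes of the acrosome and sperm head, Spata16 had the largest difference of the 22 tested Spata genes. SPATA16 is a Golgi and acrosome protein whose human mutations cause round-headed sperm without an acrosome. It read 12.00, 11.83 and 11.93 in wild type, 11.81, 12.01 and 11.82 in Wip1-/-, and 10.52, 10.61 and 10.69 on the labelled arrays. Wild type and Wip1-/- overlapped, and all 3 labelled arrays lay more than 1 log2 unit below them. The level there was 2.48-fold lower than in wild type (-1.31 ± 0.11, adjusted p = 4.47e-06) and 2.41-fold lower than in Wip1-/- (-1.27 ± 0.11, adjusted p = 1.01e-05), and both calls held in all 18 alternative fits.

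A second Spata16 probe, ILMN_1236529, annotated to another transcript of the gene, was not called. It read 9.32, 8.80 and 9.34 in wild type, 8.76, 9.15 and 8.75 in Wip1-/-, and 8.84, 9.04 and 8.67 on the labelled arrays, all groups overlapping. Its differences against wild type and Wip1-/- on the labelled arrays were -0.30 (adjusted p = 0.234) and -0.04 (adjusted p = 0.899). The positions of the probes in these transcripts were not used here. Spata46, a nuclear envelope protein of the mouse sperm head, differed by 0.02 (95% interval -0.26 to 0.29) in Wip1-/- and by 0.04 (-0.23 to 0.32) on the labelled arrays, both against wild type.

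Spata6 and Spata19, genes of the flagellum, passed no comparison at their tested probes. Spata6, needed in mice for the connecting piece that joins head and tail, read 14.51, 14.29 and 14.47 in wild type, 14.28, 14.44 and 14.19 in Wip1-/-, and 14.39, 14.56 and 14.42 on the labelled arrays. These groups overlapped, and its differences were -0.12, 0.03 and 0.16 in the 3 comparisons (adjusted p = 0.498, 0.863 and 0.332). Spata19, a mitochondrial protein of the sperm midpiece, read 14.26, 15.00 and 14.97 in wild type, 14.68, 14.83 and 14.70 in Wip1-/- and 14.96, 14.94 and 14.82 on the labelled arrays. The first wild-type array stood low, and none of the differences exceeded 0.17 in size or was called (adjusted p = 0.499 to 0.987). Spata33, which holds calcineurin at sperm mitochondria, and Spata48 likewise passed no comparison.

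A dim Spata6 probe, ILMN_1244167, annotated to a cDNA clone, went another way than the brightest one. It read 5.50, 5.48 and 5.65 in wild type, 6.80, 6.76 and 6.66 in Wip1-/-, and 5.90, 6.30 and 5.91 on the labelled arrays. All 3 groups were separate, with Wip1-/- highest, and the probe was detected on 1 of 3 wild-type arrays and on all 6 others. It was 0.70 ± 0.13 lower on the labelled arrays than in Wip1-/- (-0.70, adjusted p = 0.00201). The authors' table gave -0.42 for this difference, still called, so its size is uncertain. Against wild type, where the level lay near background, the sizes are uncertain: the difference in Wip1-/- was 1.20 ± 0.13 (adjusted p = 0.000360) but 0.69 in the authors' table, and that on the labelled arrays was 0.49 ± 0.13 (adjusted p = 0.0175) but 0.26 with no call in the authors' table (adjusted p = 0.0585). The latter call was also lost without the first or second wild-type array or the second labelled array (adjusted p = 0.0505, 0.0516 and 0.0622). A further Spata6 probe gave 0.13, -0.19 and -0.31 with no call.

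**Figure D3:**
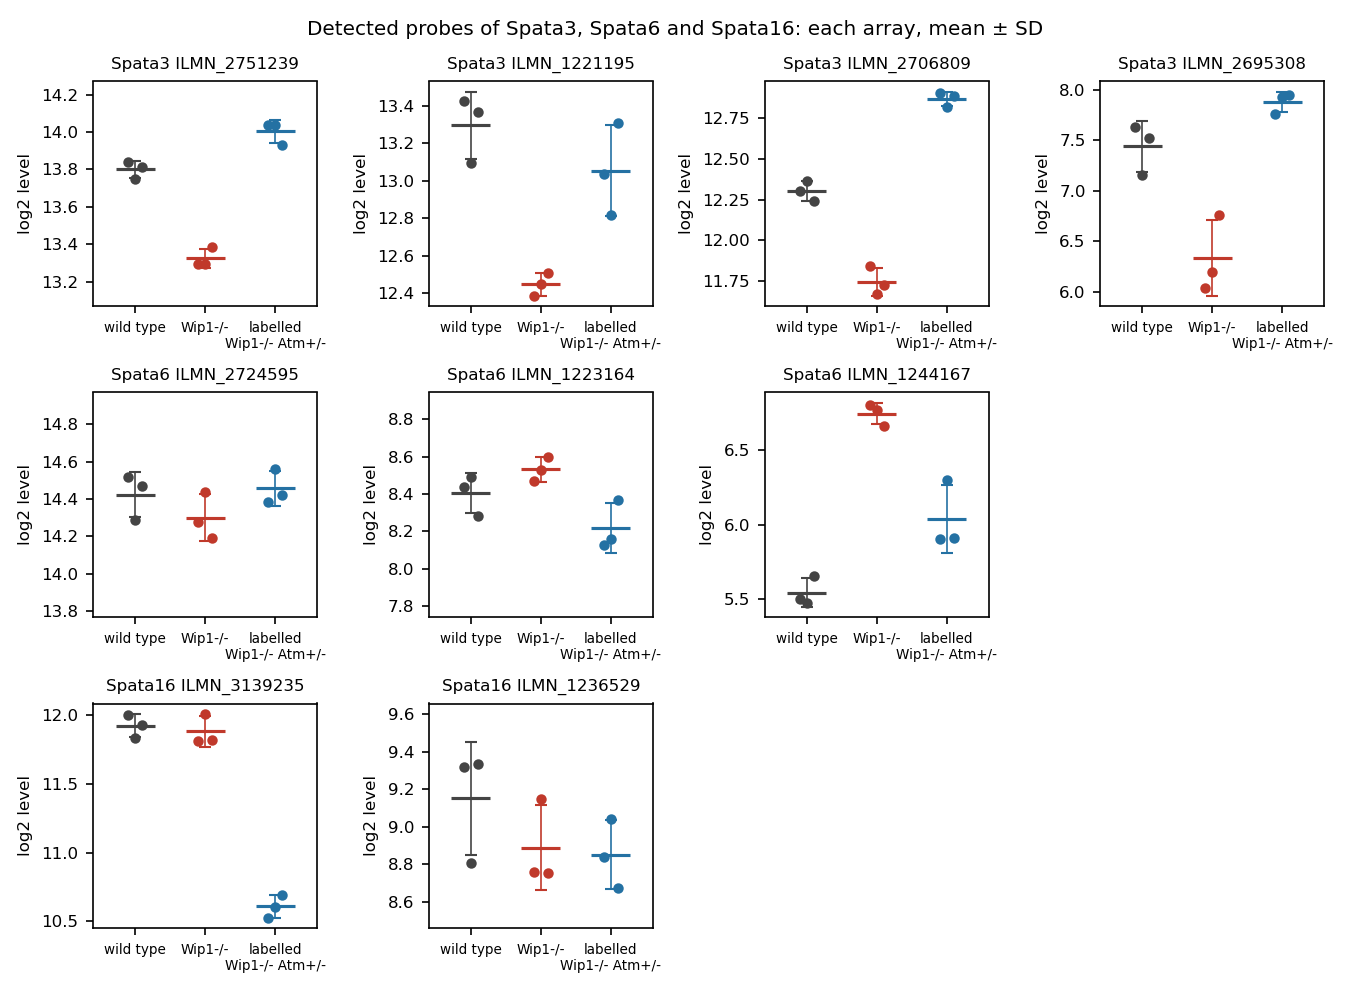
Log2 level (y axis, a separate range for each probe) of the detected probes of Spata3, Spata16 and Spata6, with each point 1 array, the bar the mean and the whiskers ± SD of 3 arrays. The 4 Spata3 probes are all lowest in Wip1-/-, 1 of the 2 detected Spata16 probes is low on the arrays labelled Wip1-/- Atm+/-, and the dim Spata6 probe is highest in Wip1-/-.

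Several members have no role named here or one known from protein features. Spata21, with an EF-hand calcium-binding motif, read 10.94, 11.12 and 11.06 in wild type, 10.80, 10.92 and 10.77 in Wip1-/-, and 11.27, 11.28 and 11.47 on the labelled arrays. The groups did not overlap, with Wip1-/- lowest and the labelled arrays highest. It was 1.42-fold higher on the labelled arrays than in Wip1-/- (0.51 ± 0.11, adjusted p = 0.00447), a call that held in all 18 alternative fits, while -0.21 and 0.30 against wild type did not pass (adjusted p = 0.214 and 0.0646).

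Spata25 read 10.69, 10.62 and 10.38 in wild type, 9.85, 10.19 and 10.26 in Wip1-/-, and 10.32, 10.33 and 10.40 on the labelled arrays. Wip1-/- was below both other groups on every array. The gene was 1.38-fold lower in Wip1-/- than in wild type (-0.46 ± 0.13, adjusted p = 0.0331). That call was lost without either of the first 2 wild-type arrays or the first 2 Wip1-/- arrays (adjusted p = 0.0551 to 0.131), and when the labelled arrays were kept out of the fit (adjusted p = 0.0596) or the replicate number was a block (adjusted p = 0.0582).

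Spata45 was the 1 tested Spata gene called higher in Wip1-/- than in wild type. It read 12.81, 13.39 and 13.46 in wild type, 13.79, 13.81 and 13.71 in Wip1-/-, and 13.64, 13.49 and 13.78 on the labelled arrays. Wild type was lowest on all 3 arrays, its first array far below the other two. The rise was 1.47-fold (0.55 ± 0.17, adjusted p = 0.0381), and 0.42 ± 0.17 on the labelled arrays did not pass (adjusted p = 0.0818). The call was lost without the first wild-type array or without any 1 of the Wip1-/- arrays (adjusted p = 0.0782 to 0.107), with median scaling (0.129), with cyclic loess (0.0640), with no detection filter (0.0599), and when the labelled arrays were kept out of the fit (0.0564), so that 3 calls were left in that fit, all lower.

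Values are given in full for Spata24, Spata19, Spata6, Spata20 and Spata3, whose tested probes had the highest wild-type signal, which does not rank the genes since signals of different probes do not compare. Of these only Spata3 was called. Spata24 read 14.84, 14.88 and 14.82 in wild type, 14.93, 14.63 and 14.81 in Wip1-/-, and 14.81, 14.71 and 14.63 on the labelled arrays, with differences of -0.06, -0.13 and -0.07. Spata20, which has a thioredoxin-like domain, read 14.13, 14.20 and 14.41 in wild type, 14.10, 13.92 and 14.00 in Wip1-/-, and 14.49, 14.21 and 14.31 on the labelled arrays. Its Wip1-/- arrays lay below both other groups, and the difference nearest to a call was 0.33 ± 0.12 between both mutant groups (adjusted p = 0.0570). Spata17, which carries calmodulin-binding IQ motifs, and Spata4 were -0.46 ± 0.18 and -0.48 ± 0.19 in Wip1-/- with no call (adjusted p = 0.0966 and 0.0979). Over the 12 genes called in none, differences ran from -0.48 to 0.21 in Wip1-/- against wild type, from -0.26 to 0.21 on the labelled arrays against wild type and from -0.35 to 0.40 between both mutant groups. The 0.21 in Wip1-/- and the -0.35 were those of Spata2, whose probe was detected on 1 wild-type, 2 Wip1-/- and 0 labelled arrays.

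Spata2, Spata2l and Spata7 are known from work outside the germ line. SPATA2 links the deubiquitinase CYLD to the LUBAC complex in TNF signalling, and Spata2l is its paralogue. Spata2l read 9.24, 9.28 and 9.28 in wild type, 9.74, 9.48 and 9.78 in Wip1-/-, and 9.83, 9.47 and 10.02 on the labelled arrays. Both mutant groups lay above wild type on every array and overlapped each other. It was 1.42-fold higher on the labelled arrays than in wild type (0.51 ± 0.15, adjusted p = 0.0225), a call lost with median scaling (adjusted p = 0.173) and without the first wild-type, the first labelled or the third labelled array (adjusted p = 0.0588, 0.0656 and 0.0924), and its 0.40 ± 0.15 in Wip1-/- did not pass (adjusted p = 0.0772). With median scaling 0 Spata genes were higher and 4 lower on the labelled arrays against wild type, in place of 1 and 2. In that fit 35.7% of all genes were called and 35.0% of the called genes were higher, beside 29.4% and 52.7% in the main fit. Spata7, a protein of the photoreceptor cilium, passed no comparison.

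Spata22 acts in meiosis, where its protein works with MEIOB in recombination, and has values in the authors' table alone. There it read intensities of 170.5, 173.2 and 210.1 in wild type, 228.1, 242.1 and 256.5 in Wip1-/-, and 108.3, 102.9 and 108.5 on the labelled arrays. The groups were separate, and the 3 labelled arrays lay below the level, 122.6 to 132.6 over the arrays, from which probes with scanner values were detected, so Spata22 was not above background there. Taking that level as its bound, Spata22 was at least 1.42-fold lower on the labelled arrays than in wild type. Against Wip1-/- it was at least 1.87-fold lower there, and neither bound was tested. The limma fit used the values themselves and gave -0.79 (adjusted p = 8.81e-06) and -1.18 (adjusted p = 6.91e-08). Those sizes rest on values below that level. In Wip1-/- it was 1.32-fold higher than in wild type (log2 difference 0.40 ± 0.10, adjusted p = 0.0125), a call lost without the first or second wild-type array or the third Wip1-/- array (adjusted p = 0.0654, 0.0530 and 0.0738). Its partner Meiob, singled out for that partnership after its values were seen, differed from wild type by 0.60 on the log2 scale in Wip1-/- and by -1.10 on the labelled arrays (adjusted p = 0.0107 and 8.91e-05). It was the 1 of 14 tested spermatocyte markers that was higher in Wip1-/-, where 2 were lower.

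A further Spata17 probe in that table read log2 values of 10.46, 10.23 and 10.29 in wild type, 10.50, 10.47 and 10.66 in Wip1-/-, and 9.89, 10.11 and 10.05 on the labelled arrays. The labelled arrays were the 3 lowest, and it was 0.52 lower there than in Wip1-/- (-0.52 ± 0.10, adjusted p = 0.000595), whereas the tested Spata17 probe was 0.40 ± 0.18 higher with no call (adjusted p = 0.116). Its -0.31 against wild type passed (adjusted p = 0.0389) but not without the first or the third wild-type, the first Wip1-/-, or the first or the third labelled array (adjusted p = 0.0510 to 0.175). The Spata33 probe with blank scanner cells passed no comparison.

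**Figure D4:**
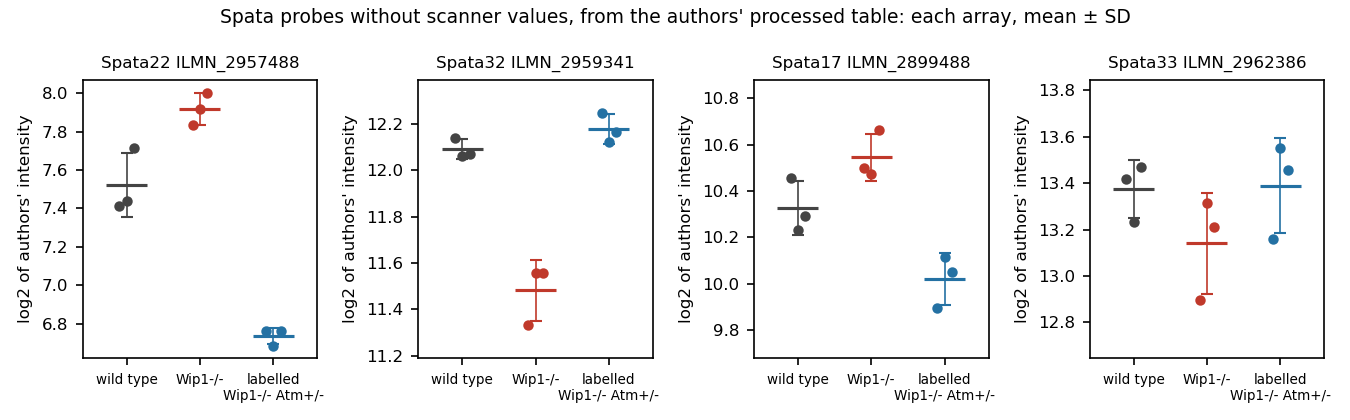
Log2 of the authors' processed intensity (y axis, a separate range for each probe) of the 4 Spata probes with blank scanner cells, with each point 1 array, the bar the mean and the whiskers ± SD of 3 arrays. Spata22 is lowest on the arrays labelled Wip1-/- Atm+/-, and Spata32 is lowest in Wip1-/-.

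Other germ-cell gene lists are read beside 19.8% of all genes called in Wip1-/- against wild type, 29.4% on the labelled arrays against wild type and 34.7% between both mutant groups. Of 13 tested genes of nuclear condensation, the step in which protamines replace histones, 0 were higher and 7 lower in Wip1-/- than in wild type (median -0.43), and 7 were higher and 0 lower on the labelled arrays than in Wip1-/- (median 0.41). Against wild type 2 were higher and 1 lower on the labelled arrays (median 0.02). Among them the histone variant gene H2al2a was -0.84 in the first of these comparisons and 1.07 in the second, and the linker histone gene H1f7 was -0.66 in the first. The summed log2 level of this list was 17.40 to 17.45 in wild type, 17.25 to 17.27 in Wip1-/- and 17.40 to 17.45 on the labelled arrays. Of 20 acrosome and round spermatid genes, 2 were higher and 2 lower in Wip1-/- and 1 higher and 3 lower on the labelled arrays against wild type, and of 31 elongating spermatid and flagellum genes 3 and 1, then 2 and 4. Between both mutant groups 2 acrosome genes were higher and 7 lower on the labelled arrays (median -0.21), and 2 flagellum genes were higher and 5 lower (median -0.07).

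Markers of other cells are counted beside the same shares of all genes, 19.8%, 29.4% and 34.7% in the 3 comparisons. Of 17 tested peritubular, vascular and stromal markers 13 were higher and 0 lower in Wip1-/- and likewise on the labelled arrays, both against wild type (medians 0.90 and 2.20), with summed log2 levels of 12.39 to 12.43 in wild type, 13.58 to 13.70 in Wip1-/- and 14.81 to 14.82 on the labelled arrays. All 4 tested erythroid markers were higher on the labelled arrays than in wild type. Of 10 spermatogonium markers, 2 were higher in Wip1-/- and 9 lower on the labelled arrays (medians 0.05 and -0.79), with summed levels of 11.39 to 11.71, 11.94 to 12.08 and 10.46 to 10.56 in the order of the genotypes above. Of 14 spermatocyte markers, 1 was higher and 2 lower in Wip1-/- and 0 higher and 4 lower on the labelled arrays, with summed levels of 15.13 to 15.27, 15.21 to 15.30 and 15.02 to 15.14. Sertoli cell markers had 1 of 10 higher in Wip1-/- and 5 of 10 higher on the labelled arrays, macrophage and immune markers had 2 of 9 higher and 1 lower, then 1 higher and 2 lower, and 1 of 10 Leydig cell markers could be tested, with no call. Between both mutant groups 12 peritubular, vascular and stromal markers were higher and 2 lower on the labelled arrays, and 8 spermatogonium markers were lower. Detected on all 9 arrays were the Sertoli markers Sox9, Cldn11 and Rhox5, the Leydig marker Insl3, the macrophage markers C1qb, C1qc, Cd74 and Aif1 and the spermatocyte markers Sycp1, Sycp2, Spo11 and Stag3. The Sertoli markers Amh, Fshr and Gata1, the Leydig markers Star and Cyp17a1, the leukocyte marker Ptprc and the spermatocyte markers Dmc1, Sycp3 and Hormad1 were detected on 0 arrays. The part of these cell markers in the differences of the Spata genes was not tested.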

How the data were processed

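Per the file headers, the authors deposited scanner intensity, without normalization, and a detection p-value per probe, and a further table of processed intensity, whose columns share 1 distribution on a linear scale. Deposited detection p-values above 1 (895 cells) lacked a decimal point and were read as thousandths. Signals were background-corrected and quantile-normalized with neqc of limma 3.58.1 (R 4.3.3, offset 16), which shrinks differences of dim probes and removes any difference in total RNA. The 18867 probes detected (p under 0.05) on 3 or more of 9 arrays were kept, and the brightest probe of each gene was tested. The fit gave each genotype 1 mean and used all 9 arrays (6 residual and 5.09 prior degrees of freedom) with two-sided tests and Benjamini-Hochberg adjustment over all genes or probes at 0.05. For the 4 Spata probes with blank scanner cells, log2 of the authors' processed intensity was fitted over all 45279 probes, with no detection p-value. SE are those of limma, and the scripts were tested on simulated data.

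Symbols came from the platform annotation (1 symbol for 34885 probes) and by Entrez identifier matched 34807 probes of the RefSeq table of GRCm38.p6. Start-region windows were RefSeq's, searched on both strands in Python 3.11.15 and aligned globally with Biopython 1.88. Values and tests are given for every Spata gene called and for the 5 whose tested probes gave the highest wild-type signal, other members by range and count. Of each marker list at most 2 called genes are named per comparison. The members and lists were chosen with earlier results of these data known. The alternatives tried were the authors' table, median scaling, cyclic loess, no background correction, other filters and probe rules, a fit of the compared genotypes alone, each array left out, the replicate number as a block and a fold threshold.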

Additional observations from a re-analysis of the deposited data

How the results depend on the processing

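Of the 15 Spata gene calls, 0 changed direction in 270 alternative values and 23 of these values lost the call; of 51 results without a call, 30 of 915 values gained one and 2 called values changed sign. Those were Spata6 with the mean of its detected probes, at 0.40 in Wip1-/- against wild type (adjusted p = 0.0162) and -0.29 on the arrays labelled Wip1-/- Atm+/- against Wip1-/- (adjusted p = 0.0388), where the mean includes the dim probe described above. In Wip1-/- against wild type the 5 called genes became 8 with the authors' table and 9 without background correction. They became 3 with only these genotypes in the fit. When 1 array was left out they ran from 2 (without the first Wip1-/- array) to 6. Of all genes 21.7%, 22.3% and 17.8% were called in the first 3 of these fits, beside 19.8% in the main fit. With 1 array left out that share ran from 11.5% to 19.4%. On the labelled arrays against wild type the 3 became 5 with the authors' table, with cyclic loess and without background correction, and ran from 2 to 4 with 1 array left out. The share of all genes was 31.1%, 28.2% and 31.6% in those 3 fits and 23.6% to 27.9% with 1 array left out, beside 29.4%. Against Wip1-/- the 7 ran from 6 to 9 with 1 array left out. In these fits 27.4% to 35.8% of all genes were called, beside 34.7%. A fold over 1.5 as well left 0 of the 5 genes in Wip1-/- against wild type and 4 of the 7 against Wip1-/-. The share of all genes over 1.5-fold was not counted, so these counts are not compared with it. With 1 array left out the called probes ran from 6 to 10, from 3 to 5 and from 10 to 13 in the 3 comparisons, beside 10, 5 and 12. The share of all probes ran from 9.99% to 17.5%, from 22.6% to 26.9% and from 26.2% to 34.5%, beside 17.6%, 28.1% and 33.6%. These ranges come from limma, which assumes the remaining arrays vary alike.

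Replicate numbers did not pair the arrays alike over the genotypes. Deviations from the genotype means correlated at -0.30 to 0.27 over the 9 same-numbered pairs and at -0.23 to 0.19 over the other pairs. The same-numbered pairs of Wip1-/- with labelled arrays were all positive (0.27, 0.16 and 0.05). Those of Wip1-/- with wild type were all negative (-0.04, -0.30 and -0.10). With the replicate block 4 Spata genes and 8 Spata probes were called in Wip1-/- against wild type, beside 17.4% of all genes and 15.1% of all probes. For the probes with blank scanner cells, leaving out arrays and the replicate block were chosen after seeing the data: 2, 2 and 3 of 4 were called, 1 in the second comparison with the replicate block, and with 1 array left out 1 to 2, 1 to 2 and 3. Median scaling shifted the median of all genes to 0.11, -0.15 and -0.21 and the share of higher calls among all called genes to 71.7%, 35.0% and 25.8%, from 57.8%, 52.7% and 48.1%. The slide as a block was not run, since the headers name none. With 3 arrays a genotype, their number limits the precision, and probes near background hold compressed differences.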
